A study of Mus musculus with 30 samples.

Results

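Glutathione transferases, the enzymes that join the tripeptide glutathione to reactive and foreign compounds, were examined in mouse colon by RNA-seq. The set held 10 genes chosen by name, Gsto1, Gsta4, Gstm1, Gstm3, Gstp1, Gstt1, Gstk1, Mgst1, Mgst2 and Mgst3, of 46078 genes in the count table. All 10 were found in every library. Their levels were not used to choose them, but earlier results of these data were known when they were chosen. The study itself had singled out Gsto1 for its response in these same animals, so the direction seen for Gsto1 below is not independent of that choice.

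The colons came from 30 C57BL/6J mice in 5 groups of 6, with 1 library per mouse. The mice were 5 to 6 weeks old when obtained and were kept on their diet for 13 weeks. CD F and CD M were females and males on a control diet (CD, 10% of kcal from fat) and received vehicle. HFD F and HFD M were females and males on a high-fat diet (HFD, 60% of kcal from fat), also with vehicle. HFD+E2 M were males on HFD that received 17β-estradiol (E2) at 0.5 mg/kg body weight. All mice had 9 intraperitoneal injections in the last 3 weeks, the females kept their ovaries, and no group of females with E2 or of CD males with E2 was analysed here. Libraries held 8667177 to 17243712 counts. Gene-centred counts of each library matched the TPM values of the same library best in 30 of 30 cases, and Xist against Y-linked genes matched the labelled sex in 30 of 30. Markers of colonocytes, the absorptive cells of the colon surface, summed to 4477 to 7470 TPM (abundance per transcript length, scaled so that each library has an equal sum) over all libraries, and each of the 16 markers was detected.

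Of the libraries, 6 stood apart in markers of stratified squamous epithelium, the layered lining found beyond the colon at the anus (25 genes, among them Krt5, Krt14 and Trp63, each detected). By their score, the mean over the markers of log2 CPM (counts scaled to library size), these 6 lay between 1.86 and 5.77, and the other 24 between -1.34 and -0.28. HFD F replicates 1, 3 and 4 held summed squamous levels of 2169, 2303 and 2625 TPM, and HFD M replicate 2 held 1092 TPM. The other 26 libraries held 146.4 to 604.9 TPM, with HFD F replicate 5 (score 3.19) and HFD M replicate 4 (score 1.86) among them, which the sum alone did not set apart. By group, the sum ran from 222.3 to 370 TPM in CD F, from 277.9 to 2625 TPM in HFD F, from 146.4 to 425.8 TPM in CD M, from 150.1 to 1092 TPM in HFD M and from 174.3 to 483.6 TPM in HFD+E2 M. Results of the members that rest on the 4 libraries over 1000 TPM are given with and without them, and also without all 6. All 6 were HFD libraries that received vehicle, and no CD or HFD+E2 library scored over 0. In comparisons that hold them, leaving them out or fitting the score does not fully separate squamous content from diet or E2. Bulk tissue RNA does not separate fewer cells of a type from less RNA per cell.

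Glutathione transferases fall into families that differ in place and preferred substrate. The cytosolic classes are named by Greek letters, the kappa enzyme sits in mitochondria and peroxisomes, and the microsomal enzymes are unrelated proteins anchored in membranes. In the gut they help to dispose of food-borne electrophiles and of aldehydes made when fats are oxidised, and many of their genes respond to the stress-sensing transcription factor Nrf2.

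By role, Gsto1 (chr19:47854970-47864790, plus strand) encodes the omega-class enzyme, which reduces dehydroascorbate and removes glutathione from protein thiols more than it conjugates. Gsta4 (chr9:78191966-78209348, plus strand) encodes an alpha-class enzyme that conjugates hydroxynonenal, an aldehyde from oxidised lipids. Gstm1 (chr3:108012255-108017973) and Gstm3 (chr3:107963696-107969283) are mu-class neighbours on the minus strand. Gstp1 (chr19:4035407-4037921, minus strand) is the pi-class gene, and Gstt1 (chr10:75783813-75798584, minus strand) the theta-class gene. Gstk1 (chr6:42245935-42250441, plus strand) encodes the kappa enzyme. Mgst1 (chr6:138140316-138156755, plus strand), Mgst2 (chr3:51660360-51682677, plus strand) and Mgst3 (chr1:167371966-167393841, minus strand) encode the microsomal enzymes, of a family that also holds enzymes of leukotriene synthesis. All are protein-coding genes, with coordinates on GRCm38 as deposited.

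Some of these genes have near copies, and sequence is shown for those because shared bases set how well short reads can be assigned. Over 51-base words, the read length of the study, 33.5% of the transcript words of Gstp1 were also found in another gene, chiefly Gstp2. The shares were 28.4% for Gstm3 and 18.5% for Gstm1, shared with each other and with the neighbouring Gstm2-ps1 and Gm8834, and 0.2% for Mgst2. No such word was found for Gsto1, Gsta4, Gstt1, Gstk1, Mgst1 or Mgst3. The coding sequence of Gstp2 differed from that of Gstp1 at 12 of 633 bases, with the longest identical stretch reaching 303 bases, over coding bases 331 to 633. In the first 60 coding bases, from the start codon, 6 of these differences stand in capitals:
Gstp1: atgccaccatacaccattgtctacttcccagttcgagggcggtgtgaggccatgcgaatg
Gstp2: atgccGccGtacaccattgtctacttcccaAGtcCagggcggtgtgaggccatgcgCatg
The mu genes lie farther apart, with 89.5% identity between Gstm1 and Gstm3 and 86% between Gstm1 and Gstm2 over 657 coding bases. Their first 60 coding bases follow, with capitals where a base differs from Gstm1, at 12 positions in Gstm2 and 9 in Gstm3:
Gstm1: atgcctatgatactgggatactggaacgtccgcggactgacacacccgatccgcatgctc
Gstm2: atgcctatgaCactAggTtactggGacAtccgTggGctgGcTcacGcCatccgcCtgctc
Gstm3: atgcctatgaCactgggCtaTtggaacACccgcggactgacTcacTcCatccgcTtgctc
These sequences are from the GENCODE M21 transcripts. The levels of Gstp1, Gstm1 and Gstm3 below are therefore less certain than those of the other members.

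Promoter windows from RefSeq (GRCm38.p6, the 250 bases before each annotated start) were matched for 9 members, with 11 windows in all. The antioxidant response core to which Nrf2 binds (TGACNNNGC, either strand) stood in 1 window, of Mgst1, 56 bases before the start, and in 10.16% of 32851 windows of all genes. That Mgst1 window reached into the first exon as the deposited coordinates give it. Other windows overlapped the deposited genes too, and those of Gstt1 and Mgst2 and the other of Mgst1 lay wholly inside them. The full palindromic estrogen response element stood in none of the 11 windows and in 0.06% of all windows. Its single arm (AGGTCA, either strand, which also lies within most full elements) stood in 1, of Gstk1, against 14.02% of all. The window of Gsto1, the member with the highest level, is shown because the diet and E2 differences below centre on this gene (chr19:47854723-47854972, plus strand, no capitals since none of the 3 motifs occurred):
Gsto1: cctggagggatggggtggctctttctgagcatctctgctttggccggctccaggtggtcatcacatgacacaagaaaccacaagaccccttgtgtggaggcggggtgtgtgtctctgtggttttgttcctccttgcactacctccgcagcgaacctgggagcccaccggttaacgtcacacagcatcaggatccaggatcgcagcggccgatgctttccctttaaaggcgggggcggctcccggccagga
These are matches of letters only, and no binding was measured.

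Gsto1 and Mgst3 were the most abundant transferases. Gsto1 averaged 221 TPM ± 100.3 (SD over 30 libraries) and ranged from 135.5 to 539 TPM, and Mgst3 averaged 200 TPM ± 36.1 with a range of 112 to 278 TPM. Gstp1 and Gstm1 followed at means of 74.7 ± 15.7 and 73.6 ± 13.98 TPM, too close to be ranked. Mgst2 averaged 55.6 TPM ± 10.47, Mgst1 42.0 ± 22.6 and Gsta4 33.4 ± 24.6. Gstt1 (17.2 TPM ± 4.10), Gstk1 (14.1 ± 3.45) and Gstm3 (8.64 ± 2.53) were the least abundant. Gsto1 ranked 219 among all genes by mean TPM.

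The order depended on the scale. When counts were divided by exon length and library size, Mgst3 came before Gsto1, and Gstp1 moved from rank 3 to 6. The ratio of TPM to this count-based level had a median of 2 over all genes with a mean of at least 1 TPM, and was 5.22 for Gstp1 and 4.29 for Mgst2 but 1.30 for Mgst3. TPM and counts came from different programs. Mgst1 and Gsta4 were the most variable members for their level, and Gstm1, Mgst2 and Mgst3 among the steadiest. The plot of TPM by library shows all values.

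**Figure D1:**
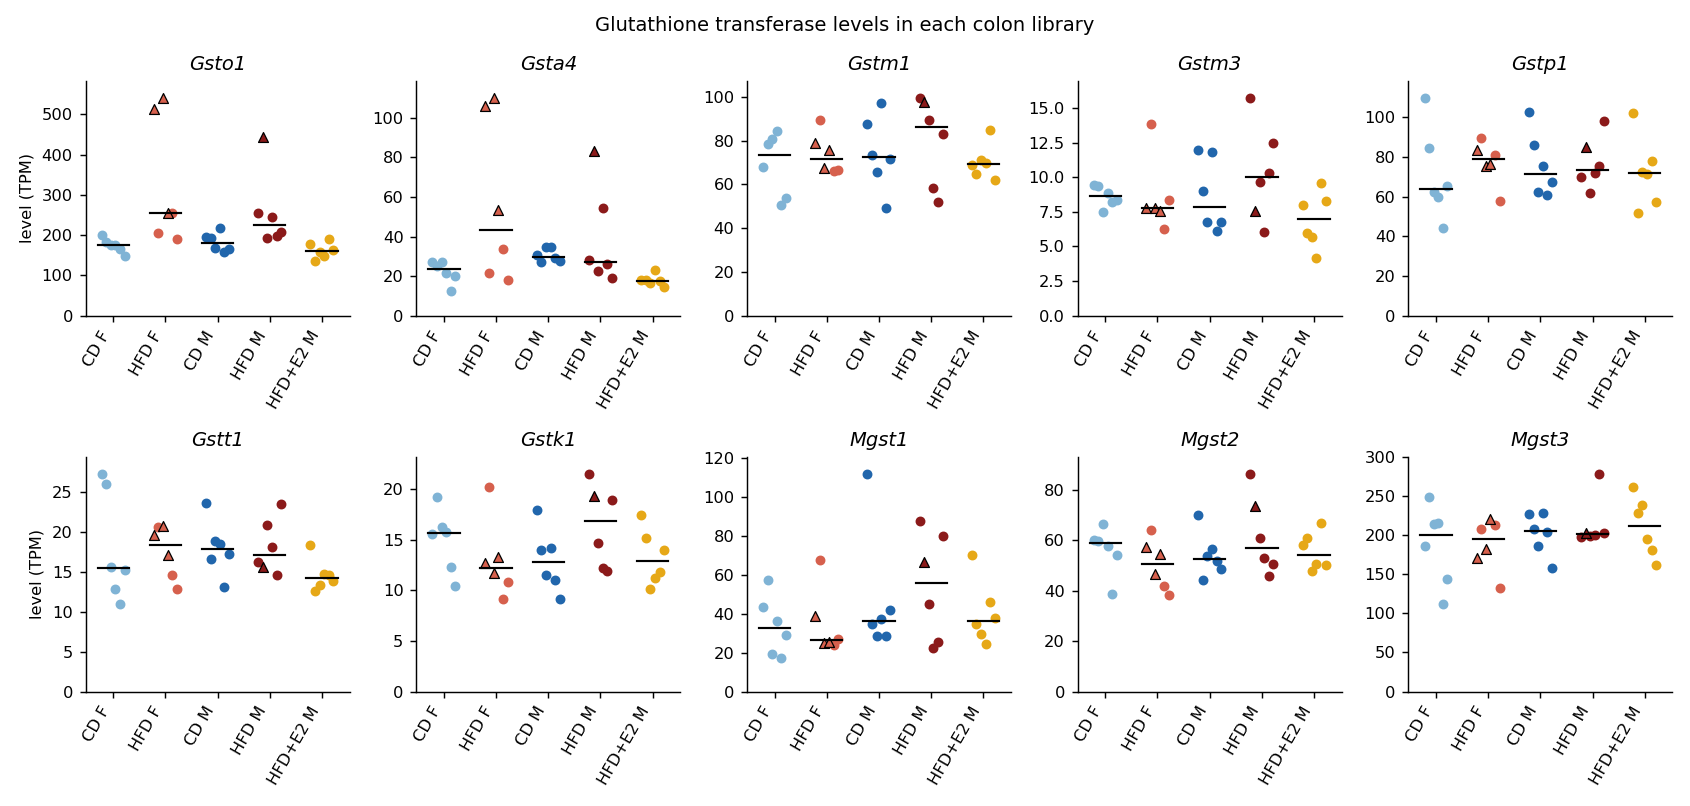
TPM of each of the 10 members (y axis, from 0) in the 30 libraries by group, with 1 point per mouse and a line at the group median. Triangles mark the 4 libraries with a squamous marker sum over 1000 TPM. The highest Gsto1 values, 539, 514 and 444 TPM, are triangles, and the same 3 libraries hold the highest Gsta4 values.

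No member passed an adjusted p of 0.05 in any of the 9 comparisons made with edgeR's quasi-likelihood test. DESeq2 called 1 member in each of 3 comparisons, given below. Its share of all genes called is not given, and the shares at the adjusted p below are those of edgeR. At an unadjusted p under 0.05, edgeR gave 2 members for HFD F vs CD F, 1 for HFD M vs CD M, 3 for HFD+E2 M vs HFD M, 1 each for HFD+E2 M vs CD M and CD F vs CD M, 2 for the diet difference over both sexes, 1 for the diet by sex interaction and 0 for HFD F vs HFD M and for sex over both diets. In the same order the share of all genes under that p was 5.68%, 6.03%, 10.2%, 10.7%, 14.8%, 5.58%, 6.75%, 5.09% and 13.5%. A p under 0.05 with an absolute log2 fold change over 0.4, called the p and fold threshold below, chose which members are described in full. These limits are those of the study, whose methods do not say if the p was adjusted, and the unadjusted p was used here. It is less strict than the adjusted p. The comparisons share libraries and are not independent of each other.

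The first question was what HFD did in each sex. In females, Gsto1 ran from 148.7 to 199.7 TPM on CD (median 176.2) and from 191.7 to 539 TPM on HFD (median 255). In TPM every HFD female except 1 exceeded all CD females. By counts divided by exon length and library size, HFD F replicates 2 and 6 (84.13 and 86.96) lay below CD F replicate 1 (92.18). The log2 fold change was 0.79 ± 0.23 (SE), a ratio of 1.73, with an edgeR adjusted p of 0.500 and an exact two-sided permutation p of 0.0152. DESeq2 gave an adjusted p of 0.0472. Gsta4 ran from 12.6 to 27.3 TPM in CD F (median 23.5) and from 17.9 to 109.7 TPM in HFD F (median 43.5). Its log2 fold change was 1.25 ± 0.41, with an adjusted p of 0.586 and an exact permutation p of 0.0693. Thus 2 of the 10 members passed the p and fold threshold, both higher, where 3.67% of 15061 genes tested did so in either direction and 2.95% in that direction. The share of all genes called at the adjusted p was 0.0199%.

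The squamous sum moved with these values. The highest Gsto1 levels among HFD females, 514 and 539 TPM, were in replicates 1 and 3, which also held 105.7 and 109.7 TPM of Gsta4. HFD F replicate 4, with the highest squamous sum, held 255.6 TPM of Gsto1 and 53.3 TPM of Gsta4. The HFD females without the high sum held 191.7, 206 and 255.2 TPM of Gsto1 and 17.9, 21.4 and 33.6 TPM of Gsta4. The highest of each, 255.2 and 33.6 TPM, were in replicate 5, the library with a squamous score of 3.19. Without replicates 1, 3 and 4 the log2 fold change of Gsto1 was 0.28 ± 0.14 (unadjusted p = 0.061, adjusted p = 1 by edgeR), and that of Gsta4 0.13 ± 0.22. Without replicate 5 as well, which left 2 HFD females, Gsto1 was at 0.099 ± 0.13 (unadjusted p = 0.474 by edgeR) and Gsta4 at -0.25 ± 0.20. With the squamous score as a covariate the values were 0.050 ± 0.19 for Gsto1 and -0.34 ± 0.22 for Gsta4, so the direction of Gsta4 turned in these last 2 fits. The score ran from -1.178 to -0.783 in CD F and from -1.146 to 5.77 in HFD F. Score and diet therefore cannot be fully told apart here.

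In males, Gsto1 ran from 158 to 218.3 TPM on CD (median 180.4) and from 193.9 to 444 TPM on HFD (median 226.4), and the groups overlapped. The log2 fold change was 0.45 ± 0.17, with an adjusted p of 0.799 by edgeR and an exact permutation p of 0.0195. Gsto1 was the only member past the p and fold threshold here, where 2.90% of 14991 genes passed it and 0% passed the adjusted p. The highest value was that of HFD M replicate 2, the library with a squamous sum of 1092 TPM. Without this library the HFD males held 193.9 to 255.3 TPM, and the log2 fold change was 0.24 ± 0.10 (unadjusted p = 0.0353, adjusted p = 0.998 by edgeR), under the limit of 0.4. Without HFD M replicate 4 too it was 0.18 ± 0.11, and the squamous covariate gave 0.21 ± 0.12. Gsta4 had a log2 difference of 0.32 ± 0.31 in males with all libraries, -0.032 ± 0.22 without HFD M replicate 2 and -0.36 ± 0.15 without replicates 2 and 4 (unadjusted p = 0.0323, adjusted p = 0.851 by edgeR). In that last fit Gstm3 was the member past the p and fold threshold, at 0.55 ± 0.23 (adjusted p = 0.850).

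Over both sexes, with sex as a term, Gsto1 had a log2 fold change of 0.62 ± 0.15 on HFD (ratio 1.54, edgeR adjusted p = 0.101, place 64 of 15461 genes by p). DESeq2 gave an adjusted p of 0.00865, and a joint edgeR fit of all 30 libraries 0.0226. Gsta4 had 0.78 ± 0.29 (adjusted p = 0.587). These were the 2 members past the p and fold threshold, which 2.30% of all genes passed (0.0647% passed the adjusted p). Without the 4 libraries the Gsto1 difference was 0.25 ± 0.082 (unadjusted p = 0.00602, adjusted p = 0.553 by edgeR) and that of Gsta4 0.028 ± 0.17. Without the 6 libraries the values were 0.15 ± 0.081 for Gsto1 (unadjusted p = 0.0769 by edgeR) and -0.31 ± 0.12 for Gsta4 (unadjusted p = 0.0147, adjusted p = 0.554 by edgeR). Gstm3 was then at 0.47 ± 0.16 (adjusted p = 0.471). With the squamous covariate Gsto1 and Gsta4 were at 0.15 ± 0.11 and -0.27 ± 0.13.

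The other 8 members showed smaller diet differences. In the diet fit over both sexes they lay between -0.069 and 0.13 on the log2 scale, beside a median of -0.0025 over all genes. Gstm1, which differed by 0.046, had the narrowest 95% interval, from -0.093 to 0.18. Mgst1, which differed by 0.028, had the widest of the 8, from -0.46 to 0.52.

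The diet by sex interaction asks whether HFD acted differently in females and males. For Gsto1 the female diet difference exceeded the male by 0.33 ± 0.30 on the log2 scale (adjusted p = 0.833 by edgeR), with an interval of -0.30 to 0.95. For Gsta4 the excess was 0.93 ± 0.55 (adjusted p = 0.749), and 1.10 to 1.28 where it passed the p and fold threshold, without HFD F replicate 2, HFD F replicate 6 or HFD M replicate 2. Without the 6 libraries it was 0.096 ± 0.25. With the squamous covariate the Gsto1 value turned to -0.14, and it was 0.052 without the 4 libraries and -0.094 without the 6. With all libraries Gstk1 was the only member past the p and fold threshold, at -0.60 ± 0.23 (adjusted p = 0.655), where 5.18% of 15800 genes passed it and 0% passed the adjusted p. Median Gstk1 was 15.6 TPM in CD F and 12.2 TPM in HFD F, but 12.8 TPM in CD M and 16.8 TPM in HFD M. Neither diet difference alone passed, at -0.29 ± 0.16 in females and 0.30 ± 0.16 in males, and all groups overlapped. Without the 4 libraries the Gstk1 interaction was -0.47 ± 0.27 (unadjusted p = 0.094 by edgeR), and without the 6 it was -0.39 ± 0.29.

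**Figure D2:**
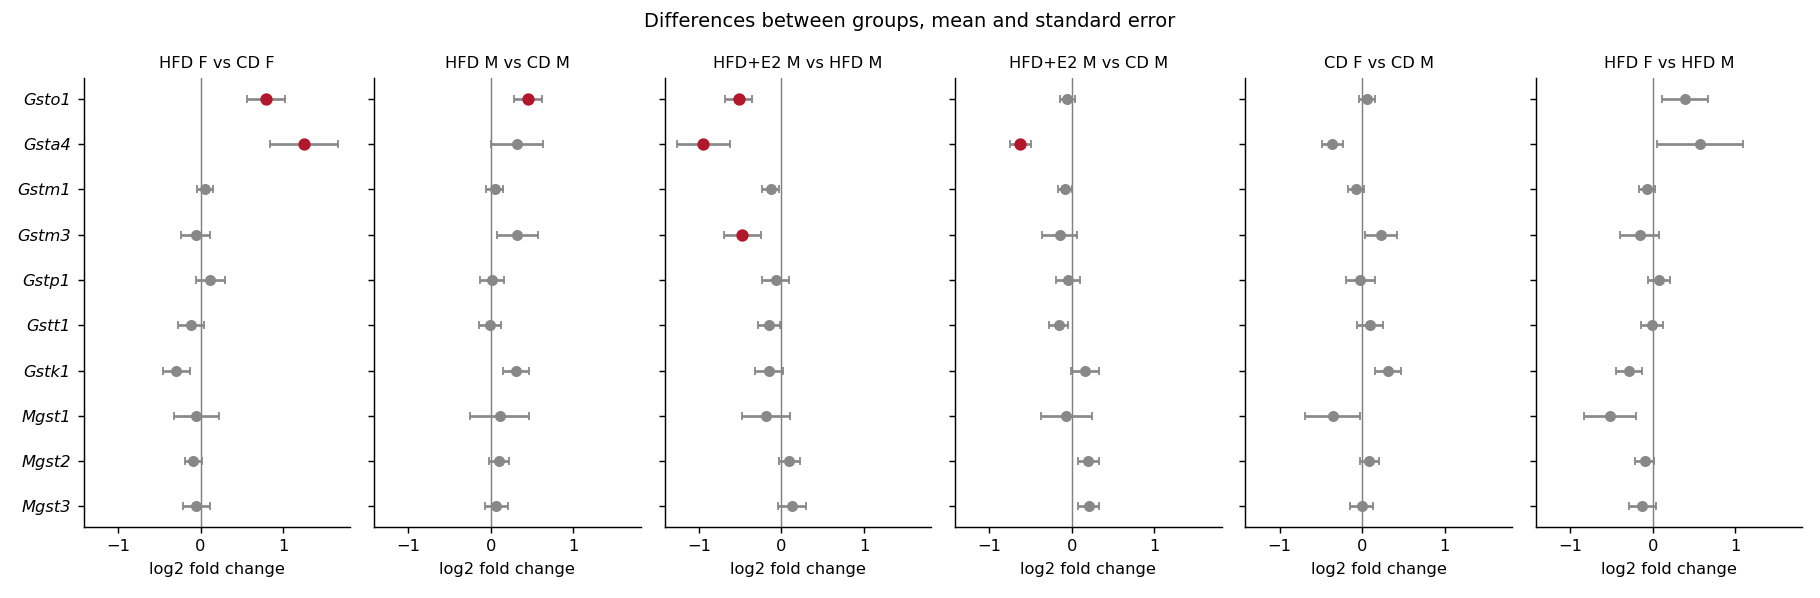
Log2 fold change of each member (x axis, first group over second) with its standard error in the 6 comparisons between groups of 6 mice. Red points passed the p and fold threshold. Red points occur for Gsto1 and Gsta4 on HFD in females, Gsto1 on HFD in males, Gsto1, Gsta4 and Gstm3 under E2 against HFD M, and Gsta4 under E2 against CD M.

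The question of E2 was addressed in males on HFD. Gsto1 ran from 135.5 to 189.9 TPM in HFD+E2 M (median 160.3), below every HFD M library (193.9 to 444 TPM), so the groups did not overlap. The log2 fold change was -0.52 ± 0.16, a ratio of 0.700, with an adjusted p of 0.455 by edgeR. The exact two-sided permutation p was 0.00216, the smallest that 6 against 6 libraries can give. Complete separation in log2 CPM, as for Gsto1, was seen for 0.413% of 15010 genes. By counts divided by exon length and library size the Gsto1 groups nearly met, at 76.02 in HFD+E2 M replicate 3 and 76.1 in HFD M replicate 3. The edgeR call share was 0.00666%.

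Gsta4 ran from 14.8 to 23.2 TPM in HFD+E2 M (median 17.8) and from 19.2 to 83.3 TPM in HFD M (median 27.3). The groups overlapped, and the log2 fold change was -0.95 ± 0.32 (adjusted p = 0.455, exact permutation p = 0.0455). Gstm3 ran from 4.15 to 9.60 TPM with E2 (median 6.96) and from 6.08 to 15.7 TPM without (median 9.99), with a log2 fold change of -0.47 ± 0.22 (adjusted p = 0.487, exact permutation p = 0.106). These 3 members passed the p and fold threshold in the lower direction, where 3.24% of all genes did (5.87% in either direction). The other 7 lay between -0.19 and 0.13, and the median over the 10 was -0.15, beside 0.0011 over all genes tested. Gstm3 did not hold this place firmly. It passed no longer when HFD M replicate 1, 3, 5 or 6 or HFD+E2 M replicate 1, 2, 3 or 4 was left out, with values of -0.35 to -0.49 and unadjusted p of 0.0605 to 0.137 by edgeR. With DESeq2 size factors its unadjusted p was 0.0504, and with the smooth muscle covariate 0.106.

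Without HFD M replicate 2, the library high in squamous markers, Gsto1 was at -0.30 ± 0.10 (unadjusted p = 0.0099, adjusted p = 0.797 by edgeR) and Gsta4 at -0.60 ± 0.23 (unadjusted p = 0.0217). Of the other 5 HFD males, replicate 4 held the highest Gsta4 (54.6 TPM) and a squamous score of 1.86, against -1.08 or lower in every HFD+E2 male. Without replicates 2 and 4 Gsto1 was at -0.25 ± 0.11 (unadjusted p = 0.0366 by edgeR) and Gsta4 at -0.29 ± 0.18 (unadjusted p = 0.138). With the squamous covariate they were at -0.23 ± 0.11 and -0.31 ± 0.18. Gstm3 moved the other way, to -0.55 ± 0.23 without replicate 2, -0.71 ± 0.20 without both and -0.66 ± 0.21 with the covariate.

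Against CD males, HFD+E2 males separated the 2 genes. Gsto1 differed by -0.054 ± 0.087 on the log2 scale (adjusted p = 0.860 by edgeR), with a 95% interval of -0.24 to 0.13, and its groups overlapped. In TPM, Gsta4 was lower in all HFD+E2 males (14.8 to 23.2 TPM) than in any CD male (27.2 to 34.9 TPM). By counts divided by exon length and library size Gsta4 overlapped narrowly, at 15.3 in HFD+E2 M replicate 4 and 15.25 in CD M replicate 2. Its log2 fold change was -0.62 ± 0.13, a ratio of 0.649, with an edgeR adjusted p of 0.052 and an exact permutation p of 0.00216, again the smallest possible. It stood at place 40 of 15109 genes by p. DESeq2 gave 0.00147 as its adjusted p. Gsta4 was the only member past the p and fold threshold, where 5.99% of all genes passed it and 0.212% passed the adjusted p. In log2 CPM, where Gsta4 did not overlap between the groups, 0.847% of all genes did not. Neither group holds a library high in squamous markers by the sum or the score, and the covariate left the difference at -0.60 ± 0.15 (adjusted p = 0.0865). Over the alternatives other than leaving out a library, the adjusted p lay between 0.00147 and 0.578, with the highest values from the joint fit of 30 libraries (0.578) and the B cell covariate (0.241). B cell markers (14 genes) summed to 8.08 to 77.2 TPM in CD M and 20.8 to 84.0 TPM in HFD+E2 M.

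Taking diet and E2 side by side in males, the median of Gsto1 was 180.4 TPM in CD M, 226.4 TPM in HFD M and 160.3 TPM in HFD+E2 M. The same order of groups was not seen for Gsta4, whose medians were 29.8, 27.3 and 17.8 TPM. Gstt1 was lowest in HFD+E2 M (median 14.2 TPM, against 17.8 in CD M and 17.1 in HFD M) and differed by -0.15 ± 0.13 from HFD M and by -0.16 ± 0.12 from CD M, which passed no threshold. HFD M was used in both comparisons of diet and of E2, so a high HFD M library moves both.

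**Figure D3:**
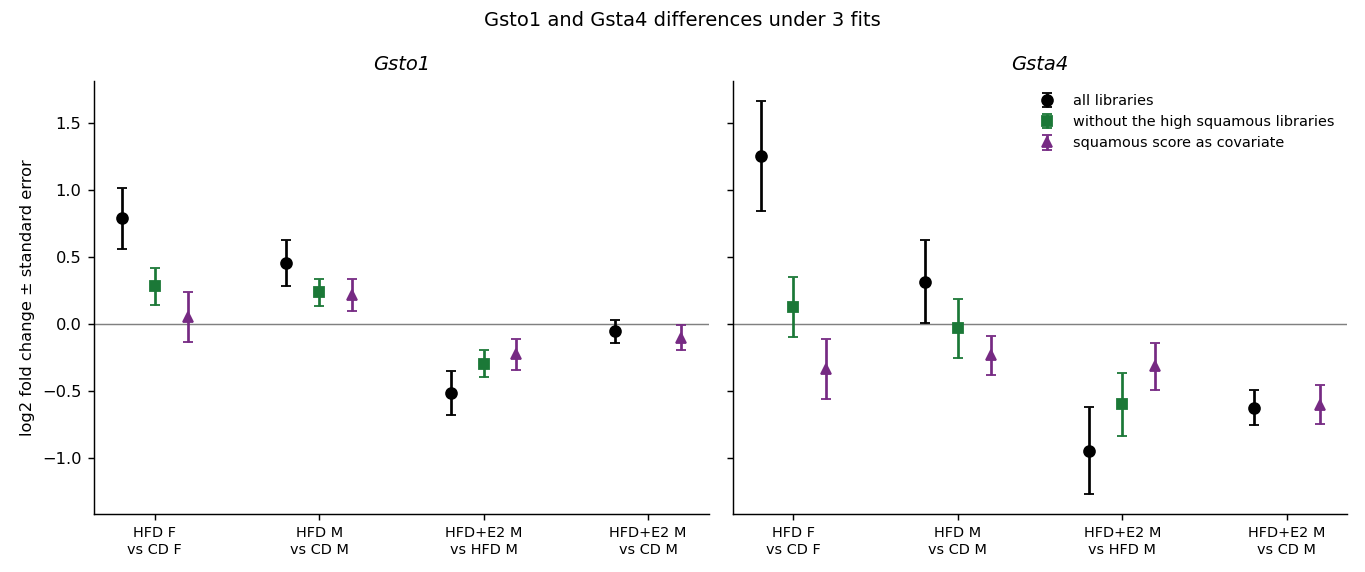
Log2 fold change ± standard error (y axis) of Gsto1 and Gsta4 in 4 comparisons with all libraries (circles), without the libraries high in squamous markers (over 1000 TPM, squares, where a comparison holds any) and with the squamous score as a covariate (triangles). The HFD differences move towards or past 0 under both alternatives, from 1.25 to -0.34 for Gsta4 in females, while Gsta4 in HFD+E2 M vs CD M stays near -0.6.

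The remaining question was whether females and males differed. On CD no member passed the p and fold threshold, against 9.15% of 14922 genes, and the share of genes called at the adjusted p was 2.92%. Gsta4 was lower in females (12.6 to 27.3 TPM) than in males (27.2 to 34.9 TPM), with a narrow overlap in TPM, a log2 fold change of -0.36 ± 0.13, an edgeR adjusted p of 0.153 and an exact permutation p of 0.00433. By counts divided by exon length and library size, CD F replicate 1 (16.52) exceeded CD M replicates 1, 2 and 6 (15.91, 15.25 and 16.13). Gsta4 passed the p and fold threshold when CD F replicate 1, CD F replicate 3 or CD M replicate 1 was left out (-0.40 to -0.42). Gsto1 differed by 0.058 ± 0.093 (adjusted p = 0.841), with an interval of -0.14 to 0.25, and was at -0.062 on log2(TPM + 1). On HFD no member passed, against 3.09% of 15179 genes (0.0988% at the adjusted p). This count rested on single libraries. It was 2 without HFD F replicate 2 (Mgst1 at -0.77 ± 0.28 and Gstk1 at -0.41 ± 0.15), 1 without HFD M replicate 4 (Mgst1 at -0.67 ± 0.27) and 1 without HFD M replicate 2 (Gsto1 at 0.61 ± 0.25), with adjusted p of 0.485, 0.485, 0.838 and 0.934 by edgeR. There Gsto1 differed by 0.39 ± 0.28 (adjusted p = 0.875) with all libraries, by -0.067 with the squamous covariate and by -0.043 without the 6 libraries.

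Over both diets, Gsto1 was higher in females by 0.22 ± 0.15 (adjusted p = 0.575), and no member passed the p and fold threshold, against 5.26% of genes (1.78% at the adjusted p). Of the 10, Mgst1 had the largest sex difference over both diets, -0.44 ± 0.24 (adjusted p = 0.450), and it passed that threshold when CD F replicate 2, HFD F replicate 2 or HFD M replicate 4 was left out (-0.50 to -0.55). It varied much between mice, from 17.1 to 57.2 TPM in CD F, 28.5 to 111.6 TPM in CD M, 23.8 to 67.3 TPM in HFD F and 22.1 to 87.5 TPM in HFD M. With a smooth muscle score as a covariate Mgst1 was at -0.92 (adjusted p = 0.00264) over both diets and at -1.43 (adjusted p = 0.0215) on CD. Smooth muscle markers (15 genes) summed to 3610 to 5448 TPM in CD F and 5472 to 9029 TPM in CD M. The score used as the covariate ran from 7.954 to 8.638 in CD F and from 8.415 to 9.19 in CD M. These ranges overlap only in part, so on CD the covariate and sex cannot be fully told apart. Group-centred Mgst1 correlated with this score at -0.854 over the 30 libraries.

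Of all pairs of members, Gsto1 and Gsta4 varied together most, with a Pearson correlation of group-centred log2 CPM of 0.83 over the 30 libraries. It was 0.42 without the 4 libraries and 0.050 without the 6. For Gstp1 with Gstt1 the correlation was 0.67 over 30 libraries, 0.75 over 26 and 0.76 over 24. It was 0.58, 0.58 and 0.53 for Gstk1 with Mgst1, and -0.61, -0.68 and -0.37 for Gsta4 with Gstm3. These values describe libraries that share depth and tissue composition and carry no test. The plot of level against squamous markers shows the 2 genes.

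**Figure D4:**
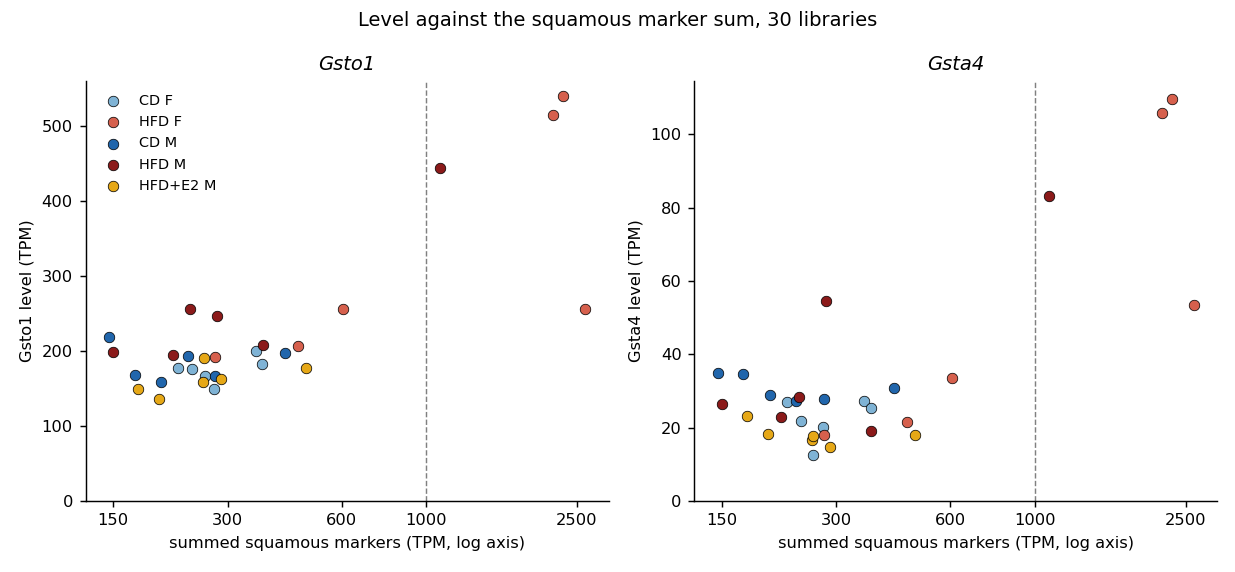
TPM of Gsto1 (left) and Gsta4 (right) against the summed TPM of 25 squamous epithelium markers (log axis) in 30 libraries, with 1 point per mouse and a dashed line at 1000 TPM. The 4 libraries right of the line hold 255.6 to 539 TPM of Gsto1 and 53.3 to 109.7 TPM of Gsta4, while the 26 others hold at most 255.3 and 54.6 TPM.

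The genes most like Gsto1 were sought among 15452 genes by correlation of group-centred log2 CPM over the 30 libraries, as a description. They were Krtap7-1 (Pearson r 0.894), a hair keratin-associated gene, Stfa3 (0.881), a stefin protease inhibitor, BC100530 (0.876), Dmkn (0.873), dermokine of the skin and a gene of the squamous list, and Lgi2 (0.872). Their Spearman rho was 0.609 to 0.718. Over the 26 libraries without a high squamous sum, r was 0.0224 to 0.586, and none of the 5 remained among the 5 most like Gsto1. Krtap7-1 and Stfa3 both had the r of 0.0224. Their levels in the 26 libraries are not given, and the limit on mean TPM was set over all 30. The r of these genes over 30 libraries can therefore rest on the high libraries alone. By Spearman's rho the first 5 were Racgap1, Sgol1, Ncapd2, Birc5 and Cd44, at 0.758 to 0.802, of which the first 4 act in chromosome segregation and cell division. Over the same 26 libraries their Pearson r with Gsto1 was 0.436 to 0.562, against 0.695 to 0.852 over all 30.

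Related genes gave the wider context. Of the other transferases and proteins with the same fold, 21 of 25 listed were matched and 18 were tested. None was called between diets or with E2 by edgeR or DESeq2, and at the p and fold threshold the E2 comparison with HFD M gave 4 lower (Gstm5, Gstm6, Gsta3 and Gsta1) and 1 higher (Gstt2). Of all genes tested there, 3.24% passed it in the lower direction and 5.87% in either. Gsta1 was at -1.05 ± 0.47 and Gsta3 at -0.57 ± 0.23, with adjusted p of 0.479 and 0.461, and at -0.91 ± 0.50 and -0.52 ± 0.24 without HFD M replicate 2. Their list median was -0.043, beside 0.0011 over all genes tested. Between diets Gstm2 alone passed that threshold, in HFD M vs CD M (0.46 ± 0.15, edgeR adjusted p = 0.704). There 2.90% of all genes passed it. Gstm2 was at 0.41 ± 0.16 without HFD M replicate 2 and at 0.44 ± 0.17 without replicates 2 and 4. In CD F vs CD M edgeR called 1 of the 18 lower, Clic4, a chloride channel-like protein (-0.46 ± 0.087, adjusted p = 0.00810), and it was called over both diets too (-0.30 ± 0.069, adjusted p = 0.0204, and 0.0230 without the 4 libraries). Of all genes, edgeR called 2.92% on CD and 1.78% over both diets.

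Genes that make glutathione (9, all tested) gave no call in any comparison. Slc7a11, the cystine importer, was at 0.74 ± 0.34 in HFD F vs CD F (adjusted p = 0.868) and at 0.24 ± 0.33 without the 3 females high in squamous markers. Of 14 genes that reduce glutathione or supply NADPH for it none was called, and under E2 against HFD M the values were -0.40 ± 0.16 for Idh1 and -0.49 ± 0.21 for Me1 (adjusted p = 0.461 and 0.470), or -0.31 ± 0.16 and -0.37 ± 0.20 without HFD M replicate 2. Of 7 glutathione peroxidase genes none was called by edgeR, and DESeq2 called 1 higher in HFD+E2 M vs HFD M. This was Gpx3, the secreted peroxidase, at 1.03 ± 0.24 by edgeR (adjusted p = 0.389, against 0.0175 by DESeq2) and at 0.95 ± 0.25 without HFD M replicate 2. At the p and fold threshold 2 of the 7, Gpx3 and Gpx7, were higher there, against 5.87% of all genes in either direction. Gpx7 was at 0.78 ± 0.31 (edgeR adjusted p = 0.461) and at 0.69 ± 0.32 without HFD M replicate 2.

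Among 18 genes that export and break down conjugates, 14 of them tested, Dpep1, a dipeptidase that acts on cysteinylglycine, was lower in females on CD (-0.86 ± 0.20, adjusted p = 0.0255) and over both diets (-0.79 ± 0.13, adjusted p = 0.00058, and 0.00431 without the 4 libraries). Oplah, the enzyme that opens oxoproline, was higher in females on CD (0.49 ± 0.13, adjusted p = 0.0491). Dpep1 and Oplah were the genes of this list that edgeR called on CD, where it called 2.92% of all genes. Over both diets that share was 1.78%. In HFD F vs HFD M Dpep1 was at -0.73 ± 0.16 (adjusted p = 0.167 by edgeR and 0.00501 by DESeq2), and at -0.61 ± 0.20 without the 4 libraries. The part of the lower smooth muscle sum of CD F in these differences was not tested. No gene of that list was called between diets. Ggt7 alone passed the p and fold threshold there, in males (-0.85 ± 0.26, edgeR adjusted p = 0.704) and over both sexes (-0.66 ± 0.19, edgeR adjusted p = 0.231). Of all genes tested, 2.90% passed it in males and 2.30% over both sexes. Without the 6 libraries Ggt7 was at -0.81 ± 0.31 in males and -0.73 ± 0.23 over both sexes. Of 21 genes of the Nrf2 system none was called in any comparison. With E2 against HFD M, 3 of the 21 (Prdx1, Ugt1a1 and Nqo1) were lower past the p and fold threshold, where 3.24% of all genes were. Hmox1, haem oxygenase, was at 0.80 ± 0.28 in HFD F vs CD F (adjusted p = 0.595) and at 0.33 ± 0.33 without the 3 females high in squamous markers. Prdx1 was at 0.41 ± 0.19 on HFD in males and at -0.68 ± 0.20 with E2, and Nqo1 at -0.48 ± 0.22 with E2 (adjusted p of 0.823, 0.454 and 0.478). Without HFD M replicate 2 these 3 values were 0.27 ± 0.17, -0.54 ± 0.18 and -0.31 ± 0.20. Ugt1a1 was at -0.62 ± 0.26 with E2 (edgeR adjusted p = 0.466) and at -0.37 ± 0.23 without that library.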

How the data were processed

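Total RNA from frozen colon (distal tissue, by the study's methods for RNA) was made into ribosome-depleted stranded libraries and sequenced in paired reads of 51 bases. The authors aligned the reads to GRCm38 (mm10 in the submitters' notes) with STAR and counted them with featureCounts, and the deposited counts are whole numbers without normalization. The authors computed TPM, and coverage (signal) that is not used here, with StringTie. TPM lines of a gene listed more than once were summed, and a patch copy of Gstp1 with 0 counts was left out.

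Counts were tested with edgeR 4.0.16 (R 4.3.3; filterByExpr, TMM, robust quasi-likelihood F test) and Benjamini-Hochberg adjustment over all genes tested. On simulated counts edgeR recovered 182 of 200 changed genes for HFD F vs CD F (15263 genes), with 7 false calls. For HFD vs CD over both sexes (15628 genes) it recovered 200 of 200, with 9 false calls. The changed genes had a median absolute log2 fold change of 1 and 0.984. The simulation gave every gene the same dispersion and held no libraries high in squamous markers, so its recovery is not the power in these data. All 10 members passed the filter in every comparison. Alternatives used DESeq2 1.42.0, limma 3.58.1 on log2(TPM + 1) and log2(TPM + 0.1), other filters, marker scores as covariates, and libraries left out. Exact permutation tests used log2 CPM with a prior count of 2. P-values were not adjusted over the members.

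The members and gene lists were chosen with earlier results of these data known. Levels are given for all members, and fold changes in full for Gsto1 and for each member past the p and fold threshold or the adjusted p; related genes are named where called, and the further ones named below that were chosen after their values were seen. The genes most like Gsto1 were the first 5 by Pearson's r among genes with a mean of at least 1 TPM. The limits of 1000 TPM and of a score of 0 for squamous markers were chosen after seeing the data.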

Additional observations from a re-analysis of the deposited data

Results flagged for a closer look

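In 6 of 50 sets of 6 libraries (10 members in 5 groups), an extreme library stood farther from its nearest neighbour than Dixon's 95% critical value allows, and chance flags about 1 in 20 sets. HFD M replicate 2 held 444 TPM of Gsto1, with the next library at 255.3 TPM. HFD F replicate 2 held 13.9 TPM of Gstm3 (next 8.38) and 67.3 TPM of Mgst1 (next 38.6). CD M replicate 1 held 111.6 TPM of Mgst1 (next 41.9). HFD M replicate 5 held 278.1 TPM of Mgst3 (next 203.2), and HFD+E2 M replicate 1 held 18.4 TPM of Gstt1 (next 14.8).

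The diet differences of Gstk1 in females and males lay on opposite sides of 0, and their difference was -0.60 ± 0.23 on the log2 scale (interaction term, unadjusted p = 0.0131, edgeR adjusted p = 0.655).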

How the results depend on the processing

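The count of members called was 0 by edgeR in all 9 comparisons and moved to 1 under these alternatives. With DESeq2 it was 1 for HFD F vs CD F and for HFD vs CD over both sexes (Gsto1) and 1 for HFD+E2 M vs CD M (Gsta4), and the joint fit of all 30 libraries gave 1 for HFD vs CD (Gsto1). For HFD+E2 M vs CD M it was also 1 (Gsta4) without a count filter (adjusted p = 0.0256), with at least 10 counts in every library (0.0464), on log2(TPM + 1) (0.0323) and with the smooth muscle (0.0261) or colonocyte score (0.0464) as a covariate. The smooth muscle covariate gave 1 (Mgst1) for CD F vs CD M and for F vs M over both diets. Leaving out a library gave 0 to 1 for HFD+E2 M vs CD M (Gsta4, adjusted p = 0.0424 without HFD+E2 M replicate 2 and 0.0289 without replicate 4) and 0 in the other comparisons. The share of all genes called under each alternative is not given, so these counts have no background beside them. The cause of these shifts was not tested.

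Among Gsto1 and the members past the p and fold threshold in the main fit of a comparison, direction turned in 10 cases. With the squamous covariate these were Gsta4 in HFD F vs CD F (-0.34) and in HFD vs CD over both sexes (-0.27), Gsto1 in HFD F vs HFD M (-0.067) and Gsto1 in the interaction (-0.14). Without the 6 libraries with a squamous score over 0 these were Gsta4 in HFD F vs CD F (-0.25) and in HFD vs CD (-0.31), and Gsto1 in HFD F vs HFD M (-0.043) and in the interaction (-0.094). The other 2 were Gsto1 in CD F vs CD M on log2(TPM + 1) (-0.062) and log2(TPM + 0.1) (-0.062). Members under the threshold were outside this count, such as Gsta4 in HFD M vs CD M, which turned as given above.

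Same-numbered libraries were not taken as pairs, since the labels give no shared source and in no comparison did all 6 pairs correlate over 0.1. The number that did was 5 of 6 in CD F vs CD M and in HFD M vs CD M and 1 to 3 in the others, and 0 to 3 of 6 libraries correlated best with their own number. Median r between same-numbered libraries was 0.241 in CD F vs CD M, against -0.0453 for other numbers. In HFD M vs CD M it was 0.196, against -0.0036. In the others it was 0.00209 to 0.103, against -0.0565 to -0.0112. Whether same-numbered libraries were processed together was not tested. With the replicate number as a block, 1 member was called for HFD+E2 M vs CD M (Gsta4, -0.64, adjusted p = 0.0333) and 0 in the other comparisons. The block moved Gsto1 in HFD M vs CD M under the fold limit (0.399) and Mgst1 past the p and fold threshold in HFD F vs HFD M (-0.47) and over both diets (-0.40). Mgst1 also passed it there with the smooth muscle (-0.65 and -0.92) and B cell (-0.58 and -0.60) covariates. Depth limits the least abundant members, with 37 to 128 counts of Gstm3 per library.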
